A study of Homo sapiens with 6 samples.

Results

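The genes described here encode the enzymes and transporters of glucose breakdown, and they were taken by symbol from a fixed list. The rule of the list did not use their measured levels, but the list was chosen with earlier results of these data known. The list holds 48 of the 55765 gene symbols in the count data. Of these, 21 belong to glycolysis with glucose uptake and lactate export, 5 to the entry of pyruvate into mitochondrial metabolism, 6 to the pentose phosphate pathway and 16 to the tricarboxylic acid (TCA) cycle. All 48 had enough reads to be tested. SLC2A3, with 7, 0 and 5 counts in the DMSO libraries, reached that level through the SAL libraries, whereas no other gene of the list had fewer than 38 counts in any library.

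RNA-seq was performed on C4-2, a castration-resistant human prostate cancer (PCa) cell line derived from LNCaP. All cells were cultured in DMEM with 5% FBS and were treated for 72 h either with the solvent DMSO or with the synthetic androgen R1881 (methyltrienolone) at 1 nM, a supraphysiological androgen level (SAL). There were 3 libraries in each group, and they carry the replicate numbers 1 to 3. A single cell line at a single time point and dose was compared, so the values describe these cultures. The serum was part of the medium in both groups.

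Glycolysis splits glucose into pyruvate in the cytosol and yields a little ATP. The oxidative branch of the pentose phosphate pathway takes glucose-6-phosphate aside to make NADPH, and its non-oxidative branch exchanges sugars between ribose-5-phosphate and glycolysis. Pyruvate is either reduced to lactate and exported or enters mitochondria, where pyruvate dehydrogenase and the TCA cycle oxidise it. Normal prostate epithelium is known for secreting citrate rather than oxidising it, and prostate cancer cells are known for running the cycle more fully.

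Promoter windows were available for 45 of the 48 genes in RefSeq (GRCh38.p14), from 250 bases before to 50 bases after the annotated start, 300 bases in all. Those of 4 genes that passed the test are shown 5′ to 3′, because they range from a promoter with many matches to the motifs searched to promoters with none. The genes are a glucose transporter and an aldolase that were up-regulated, the TCA-linked enzyme IDH1 that was up-regulated, and the kinase PDK1 that was down-regulated. Capitals mark the hypoxia response core (ACGTG or GCGTG) and the GC box (GGGCGG), on either strand.
SLC2A12 (chr6:134052575-134052874, minus strand): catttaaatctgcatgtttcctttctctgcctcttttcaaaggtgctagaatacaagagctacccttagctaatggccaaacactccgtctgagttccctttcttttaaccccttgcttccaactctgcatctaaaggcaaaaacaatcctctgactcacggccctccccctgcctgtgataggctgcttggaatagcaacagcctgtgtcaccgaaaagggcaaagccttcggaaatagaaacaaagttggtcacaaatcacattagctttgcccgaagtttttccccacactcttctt
ALDOC (chr17:28576846-28577145, minus strand): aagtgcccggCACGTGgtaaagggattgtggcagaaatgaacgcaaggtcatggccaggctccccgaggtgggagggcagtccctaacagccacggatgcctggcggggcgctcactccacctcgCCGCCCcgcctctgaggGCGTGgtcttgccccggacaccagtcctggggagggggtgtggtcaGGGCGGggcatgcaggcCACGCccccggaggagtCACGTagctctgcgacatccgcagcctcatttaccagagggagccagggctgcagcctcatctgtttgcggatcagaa
IDH1 (chr2:208254409-208254708, minus strand): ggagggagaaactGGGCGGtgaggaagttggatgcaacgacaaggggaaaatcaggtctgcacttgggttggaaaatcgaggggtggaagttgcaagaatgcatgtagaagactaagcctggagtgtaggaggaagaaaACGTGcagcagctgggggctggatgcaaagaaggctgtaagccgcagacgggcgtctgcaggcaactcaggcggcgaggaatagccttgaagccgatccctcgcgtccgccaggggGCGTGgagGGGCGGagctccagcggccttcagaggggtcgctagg
PDK1 (chr2:172555123-172555422, plus strand): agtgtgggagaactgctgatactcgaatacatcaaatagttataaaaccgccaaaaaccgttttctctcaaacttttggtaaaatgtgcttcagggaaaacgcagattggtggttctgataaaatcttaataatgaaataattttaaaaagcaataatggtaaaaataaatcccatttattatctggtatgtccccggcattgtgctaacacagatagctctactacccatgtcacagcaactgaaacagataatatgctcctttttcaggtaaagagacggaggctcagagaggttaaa
The ALDOC window held the hypoxia core at 5 positions and the GC box at 2, the IDH1 window held each at 2 positions, and the windows of SLC2A12 and PDK1 held neither. Over the genes of the list, the hypoxia core stood in 27 of 45 windows (60%), against 48.4% of all 27305 windows. It stood in 2 of 6 windows of up-regulated genes, in 2 of 4 of down-regulated ones and in 23 of 35 (65.7%) of genes that did not pass the test. No window was available for SLC2A3, SLC16A1 and OGDH, which were all DEGs, and 1 window per gene was searched. The GC box stood in 32 of 45 (71.1%) against 44.6% of all windows. The E-box CACGTG, which overlaps the hypoxia core, stood in 4 of 45 (8.89%) against 7.43%. The full androgen response element, AGAACA and its inverted repeat around a short spacer of any letters, stood in 0 of 45 windows and in 1 of all windows (0.00366%). The hexamer AGAACA alone, which also lies within the full element, stood in 4 of 45 (8.89%) against 14.9%, and in none of the windows of the 10 genes that passed the test. These are matches of letters within a short window and do not show binding.

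Sequencing depth was 7864471 to 12532355 counts in genes per library, of which rRNA genes took 11.9% to 27.8% and were removed. The 48 genes made up 0.625% to 1.07% of the remaining counts. Luminal prostate markers were present in every library (10 of 10), with summed levels of 2963 to 5827 CPM (counts scaled to the size of the library) in DMSO and 5101 to 10242 CPM in SAL, and 6 of the 10 were up-regulated. KLK3, the androgen-induced gene that encodes PSA, was up-regulated with a log2 change of 1.21 (adjusted p = 3.33e-07). Of 14 markers of other cell types, 5 to 7 were at 0 in each library, and all 14 together reached 6.81 to 20.5 CPM in DMSO and 16.3 to 24.6 CPM in SAL. ACTA2, a smooth muscle actin, was the marker among them that passed the test (2.61, adjusted p = 6.63e-06). The part of cell composition in the results below was not tested, and in bulk RNA fewer cells of a type and less RNA per cell cannot be told apart.

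The first question was how many genes of central carbon metabolism responded to SAL. With an adjusted p under 0.05 (edgeR quasi-likelihood test with the replicate number as a block), 13 of the 48 genes were differentially expressed genes (DEGs), which is 27.1%, against 20.8% of all 16835 genes tested. There were 8 up-regulated genes (16.7%, against 11.5% of all genes) and 5 down-regulated ones (10.4%, against 9.37%). The 8 include SLC2A3, which had to differ in order to be tested, and without it 7 of 47 genes were up-regulated (14.9%). The other 35 genes had log2 fold changes between -0.23 and 0.38, and 10 of these had an unadjusted p under 0.05. The median log2 fold change was 0.01, and that of all genes was 0.00. Higher values in SAL in all 3 pairs were seen for 15 genes (31.2%, against 25.9% of all genes) and lower values for 14 (29.2%, against 25.3%).

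**Figure D1:**
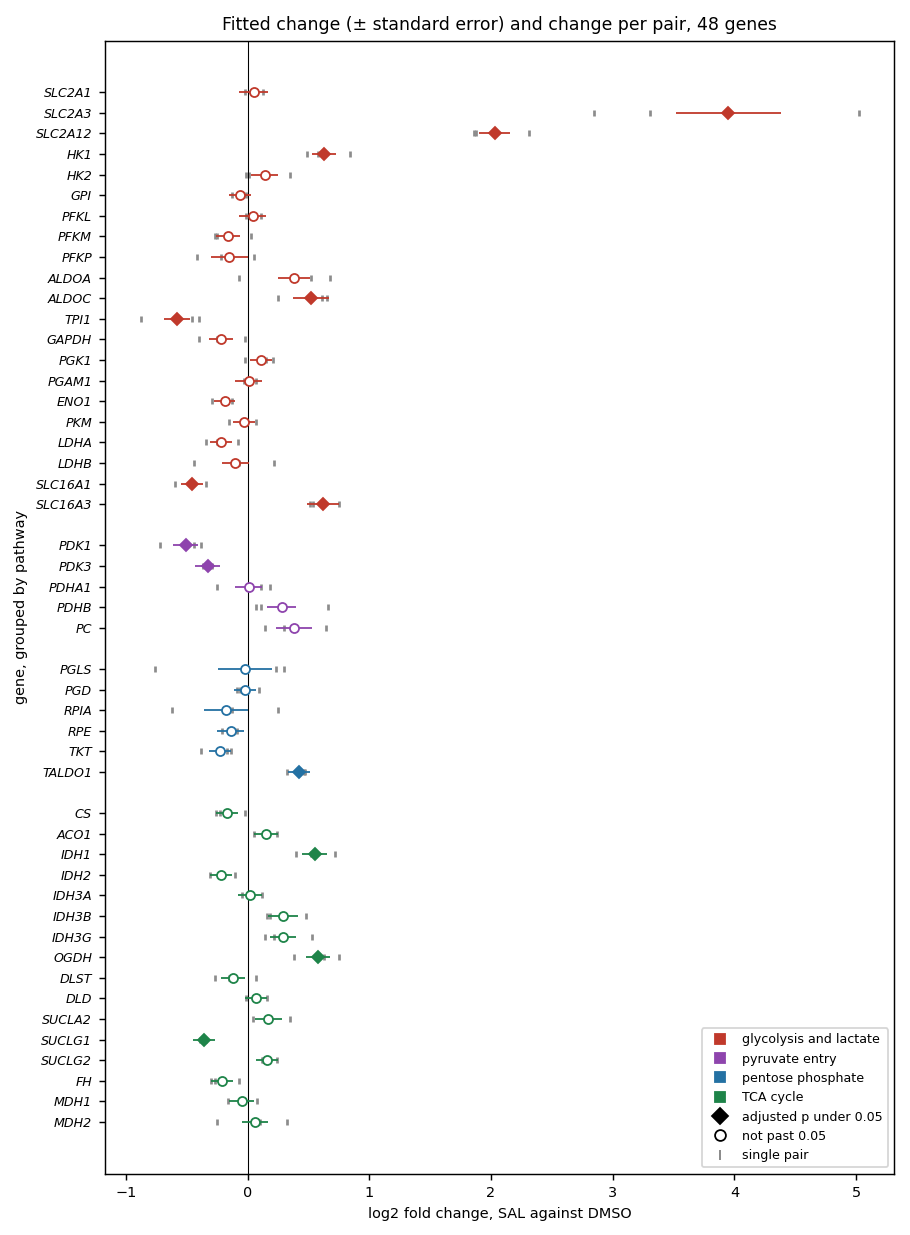
Fitted log2 fold change of SAL against DMSO (horizontal axis) for each of the 48 genes (vertical axis, grouped and coloured by pathway), with bars of 1 standard error and grey ticks for the 3 pairs. Filled diamonds mark the 13 DEGs, and SLC2A3 at 3.95 and SLC2A12 at 2.03 stand far to the right of the others, which lie between -0.58 and 0.63.

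The levels differed strongly between replicates of the same group. In DMSO, the highest and lowest library of a gene differed by a median of 1.20 on the log2 scale, from 0.33 for PDK1 to 3.10 for OGDH, and this range was larger than the absolute log2 fold change for 44 of the 48 genes. The SAL libraries lay above every DMSO library for 2 genes (4.17%, against 3.78% of all genes) and below for 1 gene (2.08%, against 3.73%). The calls therefore rest on differences within pairs. Without the replicate block, 0 genes of the list passed in either direction and 2 had an unadjusted p under 0.05. Among all genes tested, 18 were then up-regulated and 3 down-regulated. Without the pair of replicate 3, the list held 4 up-regulated genes and 1 down-regulated gene, and the shares of all genes were 4.41% and 2.84%.

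The differences between replicates went with base composition. Across the 48 genes, the GC content of the exons ranged from 37.4% to 66.0%, and its correlation with the difference between DMSO replicates 2 and 1 was r = 0.68 (rho = 0.68). The same correlation in the SAL libraries was r = 0.76. With the log2 fold change of SAL against DMSO, r was -0.02 (rho = 0.15), or 0.31 without SLC2A3 and SLC2A12. These are descriptions across 48 genes of the same libraries, which are not independent points. With a correction for GC content and exon length added after the data had been seen, 8 genes were up-regulated and 9 down-regulated. The same setting called 13.8% of all genes tested up and 13.2% down. GAPDH, ENO1, TKT and IDH2 were then past the threshold, with adjusted p = 0.00585, 0.0293, 0.00772 and 0.0291.

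**Figure D2:**
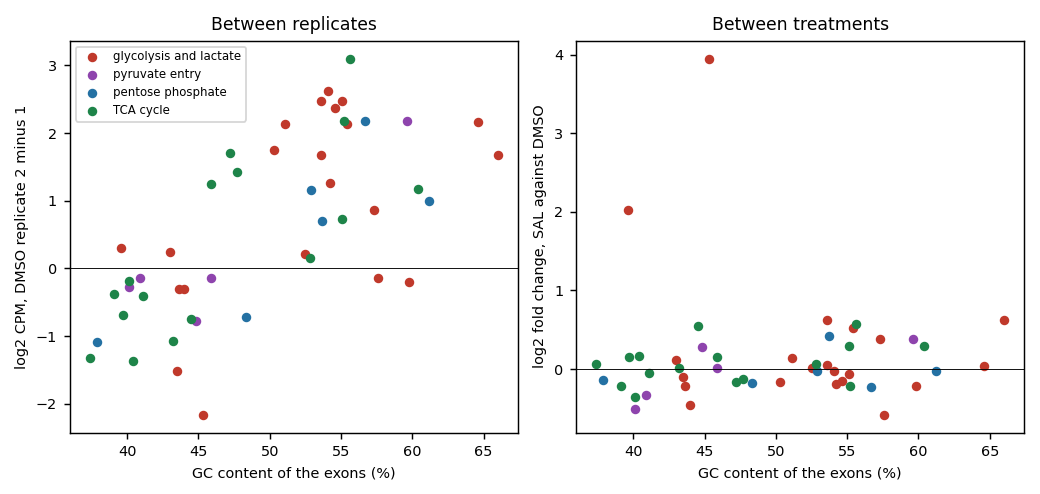
GC content of the exons (horizontal axes, %) of the 48 genes against the log2 CPM difference between DMSO replicates 2 and 1 (left) and against the fitted log2 fold change of SAL against DMSO (right), coloured by pathway. On the left most GC-rich genes lie above 0 and most GC-poor ones below 0 (r = 0.68), and on the right r is -0.02, or 0.31 without SLC2A3 and SLC2A12, the highest points.

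The second question was whether the pathways differed. Glycolysis held 5 up-regulated genes, SLC2A3 included, and 2 down-regulated genes of 21, with a median log2 fold change of 0.01. Pyruvate entry held 0 up-regulated and 2 down-regulated genes of 5, with a median of 0.01. The pentose phosphate pathway held 1 up-regulated gene of 6 and 0 down-regulated ones, with a median of -0.08, and the TCA cycle held 2 up-regulated and 1 down-regulated gene of 16, with a median of 0.06. Each share stands beside the 11.5% of all genes that were up-regulated and the 9.37% that were down-regulated.

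The medians per pair crossed 0 in every pathway but the TCA cycle. They were -0.02, 0.03 and -0.01 in glycolysis, -0.25, 0.18 and 0.11 in pyruvate entry, and -0.23, 0.09 and -0.11 in the pentose phosphate pathway. In the TCA cycle they were 0.06, 0.12 and 0.09. The summed CPM of the glycolysis genes was 4189, 6521 and 4235 in the DMSO libraries and 3437, 6787 and 4062 in the SAL libraries of the same number. The summed CPM of the TCA genes was 1976, 2338 and 1988 in DMSO and 2180, 2479 and 2366 in SAL, which is higher in SAL in each pair. Without IDH1 they were 1496, 2053 and 1572 in DMSO and 1490, 2102 and 1682 in SAL, so the rise in pair 1 rested on that gene. The sums follow the most abundant genes, and the groups overlapped in both pathways. In the pentose phosphate pathway the sums were 546, 1241 and 701 in DMSO and 556, 1269 and 698 in SAL, and in pyruvate entry 361, 300 and 294 against 322, 346 and 268. Whether the pathways differed from each other was not tested, because the genes of a pathway are not replicates.

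**Figure D3:**
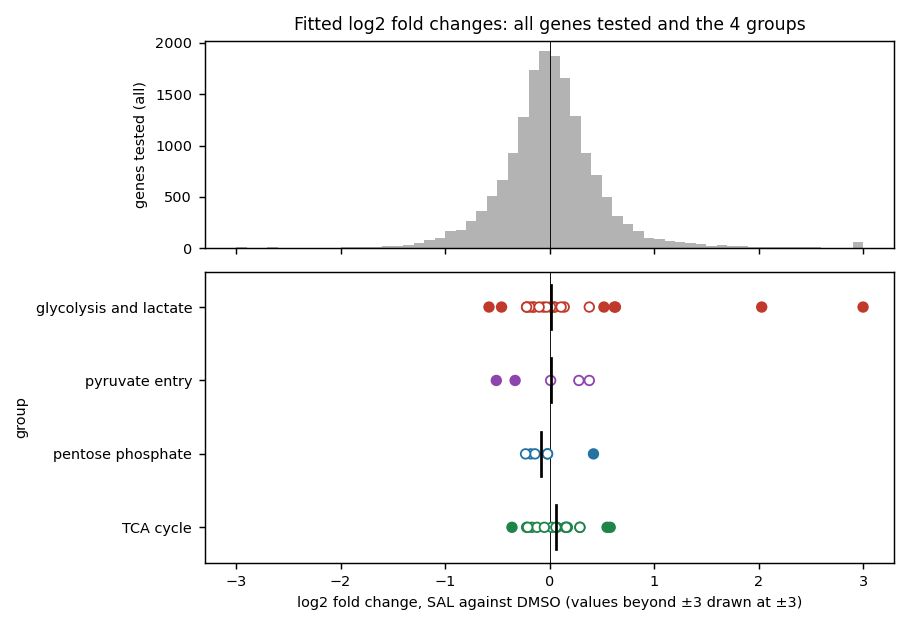
Histogram of the fitted log2 fold changes of all 16835 genes tested (upper panel, number of genes) and the genes of each group (lower panel, filled where past the threshold, black line at the median). The 4 medians lie between -0.08 and 0.06, near the median of all genes at 0.00, and SLC2A3 is drawn at the edge of the axis.

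Among the glucose transporters, SLC2A12 (GLUT12) was up-regulated and SLC2A3 (GLUT3) was called with few DMSO counts, whereas SLC2A1 (GLUT1), the widespread basal glucose transporter, did not pass the test. Positions of the DEGs are given on GRCh37, the build of the counts. SLC2A12 (chromosome 6, 134308719 to 134373762, minus strand) was measured at 12.8, 15.7 and 11.6 CPM in DMSO and at 47.1, 58.5 and 58.6 CPM in SAL. The groups did not overlap, and SAL was higher in every pair. It rose 4.09-fold (log2 fold change 2.03, SE 0.13, adjusted p = 2.86e-08). In the annotation, 51.18% of its exon bases overlap exons of TBPL1 on the other strand, where reads counted without strand cannot be assigned to either gene. TBPL1 was measured at 50.3, 24.9 and 31.7 CPM in DMSO and at 73.8, 36.6 and 47.7 CPM in SAL, a log2 change of 0.57 (adjusted p = 0.00119), smaller than that of SLC2A12. Without the replicate block, the adjusted p of SLC2A12 was 0.136.

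SLC2A3 (chromosome 12, 8071826 to 8171603, minus strand), a high-affinity glucose transporter best known from neurons, was close to absent in DMSO, with 7, 0 and 5 counts (0.867, 0 and 0.668 CPM). In SAL it reached 61, 72 and 72 counts, or 7.81, 7.89 and 8.87 CPM. The groups did not overlap. The fitted log2 fold change of 3.95 (SE 0.43) is given as a description, because SLC2A3 entered the test only through the libraries in which it is high, and its size depends on the few DMSO counts. The processed copy SLC2A3P4 had 32, 23 and 35 counts in DMSO and 33, 24 and 36 in SAL, with a log2 change of -0.07 (adjusted p = 0.888). When all such copies were added to SLC2A3, the log2 fold change was 1.42 (adjusted p = 0.000128). The related gene SLC2A14 had 0, 0 and 0 counts in DMSO and 1, 3 and 1 in SAL.

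SLC2A1 was measured at 15.4, 49.5 and 32.7 CPM in DMSO and at 16.8, 48.8 and 34.5 CPM in SAL (log2 fold change 0.05, adjusted p = 0.805). The log2 ratio of SLC2A1 to SLC2A12 was 0.26, 1.64 and 1.47 in DMSO and -1.48, -0.26 and -0.76 in SAL, a mean difference of -1.96 ± 0.25 (SD, n = 3 pairs). Per length of exon, SLC2A1 stood at 4.92 CPM per kb in DMSO and 5.04 in SAL, and SLC2A12 at 2.40 and 9.83. With only the 2720 of its 5572 exon bases that do not overlap TBPL1, SLC2A12 stood at 4.91 and 20.1 CPM per kb, so its level in DMSO depends on the length used. On the full length, the lowest SLC2A1 library in DMSO (2.32) lay below the highest SLC2A12 library (2.82), whereas in SAL the lowest SLC2A12 library (8.46) was above the highest SLC2A1 library (7.38).

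The hexokinases trap glucose in the cell by phosphorylation. HK1 (chromosome 10, 71029740 to 71161640, plus strand), the form bound to mitochondria in most tissues, was measured at 44.7, 250 and 169 CPM in DMSO and at 80.4, 373 and 238 CPM in SAL. The groups overlapped because the replicates differ, while each SAL library was higher than the DMSO library of its number. HK1 rose 1.55-fold (log2 fold change 0.63, SE 0.10, adjusted p = 0.000278). HK2, the inducible form that is often high in tumours, was measured at 19.1, 84.8 and 75.5 CPM in DMSO and at 19.2, 108 and 75.2 CPM in SAL (0.14, adjusted p = 0.432). The log2 ratio of HK1 to HK2 differed by 0.83, 0.22 and 0.50 in the 3 pairs, with a higher share of HK1 in SAL each time.

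In the upper part of glycolysis, the phosphofructokinases, which catalyse its committed step, did not pass the test. Their log2 fold changes were 0.04 for PFKL, -0.16 for PFKM and -0.15 for PFKP (adjusted p = 0.839, 0.306 and 0.552). The aldolases cut fructose-1,6-bisphosphate into triose phosphates. ALDOC (chromosome 17, 26900133 to 26903966, minus strand), the form typical of brain, was measured at 6.81, 30.8 and 11.4 CPM in DMSO and at 10.5, 48.5 and 13.6 CPM in SAL. Each pair had the higher level in SAL although the groups overlapped, and ALDOC rose 1.44-fold (log2 fold change 0.52, SE 0.15, adjusted p = 0.0216). This call was lost without replicate 2 (adjusted p = 0.225), without replicate 3 (0.0727) and with DESeq2 (0.112).

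ALDOA, the main aldolase of most cells, was measured at 267, 486 and 229 CPM in DMSO and at 255, 779 and 329 CPM in SAL. It was higher in pairs 2 and 3 and slightly lower in pair 1, with a log2 change of 0.38 (adjusted p = 0.0568). Without replicate 1 its adjusted p was 4.61e-08, and without the filter on low counts it was 0.000303. The 2 aldolases kept no common order of change, since the difference of their log2 ratio was -0.67, 0.03 and 0.27 in the 3 pairs.

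TPI1 (chromosome 12, 6976283 to 6980112, plus strand), which interconverts the triose phosphates, was the down-regulated enzyme of the glycolytic chain. It was measured at 351, 319 and 176 CPM in DMSO and at 190, 241 and 128 CPM in SAL. It was lower in SAL in every pair, and the groups overlapped through replicate 3 of DMSO. It had a log2 fold change of -0.58 (SE 0.11, adjusted p = 0.00104). Of the symbols, 4 are named as copies of TPI1, with up to 102% of its own counts, and with their counts added the log2 fold change was -0.41 (adjusted p = 0.0161).

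GAPDH, the next enzyme and a common reference gene, was measured at 1192, 1041 and 598 CPM in DMSO and at 901, 1028 and 504 CPM in SAL (log2 fold change -0.22, adjusted p = 0.134). It was lower in SAL in all 3 pairs. Without replicate 2 the adjusted p was 0.0330. For GAPDH, 58 copy symbols held up to 103% of its counts, and with them added the log2 fold change was -0.28 (adjusted p = 0.0562).

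ENO1 (enolase) and PKM (pyruvate kinase), the next most abundant genes after GAPDH by mean CPM, had log2 fold changes of -0.19 (adjusted p = 0.160) and -0.03 (adjusted p = 0.840). ENO1 was measured at 524, 1258 and 683 CPM in DMSO and at 428, 1129 and 622 CPM in SAL, lower in each pair. PKM was measured at 163, 1003 and 595 CPM in DMSO and at 171, 989 and 536 CPM in SAL, with no common direction. The isomerase GPI, the kinase PGK1 and the mutase PGAM1 had log2 fold changes between -0.06 and 0.11 and did not pass the test. Of the enzymes from hexokinase to pyruvate kinase, the DEGs were thus HK1, ALDOC and TPI1.

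Lactate dehydrogenase converts pyruvate to lactate, and the monocarboxylate transporters carry lactate across the membrane. LDHA, the subunit that prevails in glycolytic tissue, was measured at 332, 267 and 254 CPM in DMSO and at 263, 253 and 214 CPM in SAL (log2 fold change -0.22, adjusted p = 0.111, or 0.0427 without replicate 2). The 6 copy symbols of LDHA held up to 43.5% of its counts. LDHB was measured at 510, 178 and 297 CPM in DMSO and at 377, 208 and 283 CPM in SAL (-0.10, adjusted p = 0.599). The log2 ratio of LDHA to LDHB changed by 0.10, -0.30 and -0.18, with no common direction.

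The exporters moved in opposite directions. SLC16A1 (MCT1, chromosome 1, 113454469 to 113500215, minus strand) was measured at 268, 216 and 283 CPM in DMSO and at 196, 143 and 223 CPM in SAL, lower in each pair with a slight overlap of the groups. Its log2 fold change was -0.46 (SE 0.09, adjusted p = 0.00211). SLC16A3 (MCT4, chromosome 17, 80175810 to 80219005, plus strand), the lower-affinity transporter typical of glycolytic cells, had 81, 239 and 166 counts in DMSO and 115, 503 and 258 counts in SAL, or 21.6 ± 11.3 and 33.9 ± 20.3 CPM (SD, n = 3).

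SLC16A3 was higher in each pair while the groups overlapped, and rose 1.54-fold (log2 fold change 0.62, SE 0.13, adjusted p = 0.00248). The log2 ratio of SLC16A1 to SLC16A3 was 4.71, 2.72 and 3.66 in DMSO and 3.71, 1.37 and 2.80 in SAL, a mean difference of -1.07 ± 0.25 (SD, n = 3 pairs). Per kb of exon, SLC16A1 stood at 40.3 CPM in DMSO and 29.5 in SAL, and SLC16A3 at 2.34 and 3.67. The call of SLC16A1 was lost without replicate 3 (adjusted p = 0.0765). In the annotation, 5.22% of the exon bases of SLC16A3 overlap CSNK1D on the other strand.

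**Figure D4:**
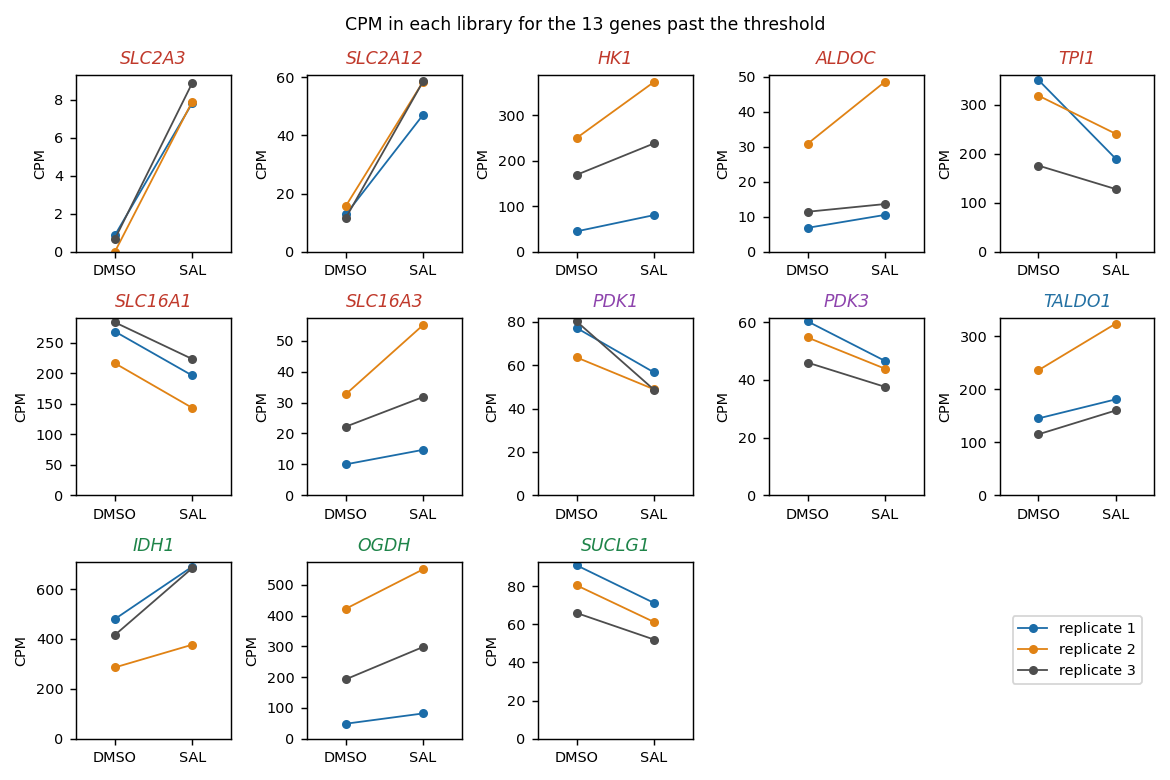
CPM (vertical axes, from 0) in the DMSO and SAL libraries for the 13 DEGs, with lines joining libraries of the same replicate number and titles coloured by pathway as in the plot of fitted changes. SLC2A3, SLC2A12 and PDK1 have groups that do not overlap, while in the other 10 the groups overlap and all 3 lines run the same way.

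At the entry of pyruvate, PDK1 and PDK3, a pair of the kinases that inhibit pyruvate dehydrogenase, were down-regulated. Of the other kinases of this family, named after their values were seen, PDK2 had a log2 change of -0.06 (adjusted p = 0.883) with pairs at -0.95, 0.31 and 0.18, and PDK4 had 0 counts in every library. PDK1 (chromosome 2, 173420101 to 173473397, plus strand), a known hypoxia-induced kinase, was measured at 77.2, 63.6 and 80.2 CPM in DMSO and at 56.7, 48.9 and 48.7 CPM in SAL. Every SAL library was below every DMSO library. The log2 fold change was -0.51 (SE 0.10, adjusted p = 0.00225, or 0.156 without replicate 3). PDK3 (chromosome X, 24483361 to 24568583, plus strand) was measured at 60.3, 54.7 and 46.0 CPM in DMSO and at 46.6, 43.9 and 37.6 CPM in SAL, lower in each pair by a similar amount.

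PDK3 changed by -0.33 on the log2 scale (SE 0.10, adjusted p = 0.0330). The call of PDK3 was lost in each alternative that left out a replicate number (adjusted p = 0.0611, 0.0626 and 0.259 without replicates 1, 2 and 3). It was also lost with DESeq2 (0.152). The subunits of pyruvate dehydrogenase did not pass the test, with 0.01 for PDHA1 (adjusted p = 0.954) and 0.28 for PDHB (adjusted p = 0.113). For PDHB the adjusted p was 0.00277 without replicate 1 and 0.0326 without the filter. Pyruvate carboxylase (PC), which feeds oxaloacetate to the cycle, had a log2 change of 0.38 (adjusted p = 0.0818, or 0.0253 without replicate 1).

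In the pentose phosphate pathway, TALDO1 was the DEG. It encodes transaldolase, which links the non-oxidative branch to glycolysis. TALDO1 (chromosome 11, 747415 to 765012, plus strand) was measured at 145, 236 and 115 CPM in DMSO and at 181, 324 and 160 CPM in SAL. The groups overlapped, but the pairs changed alike, by 0.32, 0.46 and 0.47 on the log2 scale, and the fitted rise was 1.34-fold (log2 fold change 0.42, SE 0.09, adjusted p = 0.00398, or 0.208 without replicate 3).

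TKT, the transketolase that works beside it, had a log2 change of -0.23 (adjusted p = 0.102) and was lower in all 3 pairs. PGD, an NADPH-producing dehydrogenase of the oxidative branch, had -0.02 (adjusted p = 0.909), and RPE, RPIA and PGLS lay between -0.18 and -0.02. The precision for PGLS was low, with a SE of 0.22 and pairs at -0.76, 0.30 and 0.23. In the annotation, 23.84% of the exon bases of RPE overlap KANSL1L on the other strand, which rose with a log2 change of 1.32 (adjusted p = 1.19e-07).

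In the TCA group, IDH1 and OGDH were up-regulated and SUCLG1 was down-regulated. IDH1 (chromosome 2, 209100953 to 209130798, minus strand), the cytosolic isocitrate dehydrogenase that makes NADPH, was measured at 480, 286 and 416 CPM in DMSO and at 690, 377 and 684 CPM in SAL. Each SAL library was higher than its pair, and the groups overlapped through replicate 2 of SAL. IDH1 rose 1.46-fold (log2 fold change 0.55, SE 0.10, adjusted p = 0.000673, or 0.135 without replicate 3).

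IDH2, the mitochondrial counterpart, was measured at 61.7, 281 and 162 CPM in DMSO and at 57.6, 226 and 139 CPM in SAL, lower in each pair (log2 fold change -0.22, adjusted p = 0.122, or 0.0361 without replicate 1). The log2 ratio of IDH1 to IDH2 was 2.95, 0.02 and 1.36 in DMSO and 3.57, 0.74 and 2.30 in SAL, a mean difference of 0.76 ± 0.16 (SD, n = 3 pairs). Per kb of exon, IDH1 stood at 83.8 CPM in DMSO and 124 CPM in SAL, rank 7 and rank 3 among the 48 genes, although its libraries in SAL (80.2 to 147) overlapped those of its neighbours ENO1 (82.0 to 217) and ALDOA (66.7 to 204).

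OGDH (chromosome 7, 44646171 to 44748665, plus strand), the catalytic subunit of the 2-oxoglutarate dehydrogenase complex, was measured at 48.8, 422 and 193 CPM in DMSO and at 82.2, 550 and 298 CPM in SAL. It had the widest replicate range of the list, yet each SAL library was higher than its pair. It rose 1.49-fold (log2 fold change 0.58, SE 0.10, adjusted p = 0.000594, or 0.0761 without replicate 3). The other subunits of the complex did not pass the test, with -0.12 for DLST (adjusted p = 0.447) and 0.07 for DLD (adjusted p = 0.641).

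SUCLG1 (chromosome 2, 84650652 to 84687169, minus strand), the shared alpha subunit of succinyl-CoA ligase, was measured at 90.9, 80.4 and 65.9 CPM in DMSO and at 71.2, 61.2 and 52.0 CPM in SAL. The groups overlapped, and the pairs fell alike, with a log2 fold change of -0.36 (SE 0.09, adjusted p = 0.0126). With DESeq2 the adjusted p was 0.0578, and without replicate 3 it was 0.203. The beta subunits did not pass the test, with log2 fold changes of 0.17 for SUCLA2 (adjusted p = 0.293) and 0.16 for SUCLG2 (adjusted p = 0.251), and both were higher in all 3 pairs.

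The NAD-dependent isocitrate dehydrogenase of the cycle is built of the catalytic subunit IDH3A and the regulatory subunits IDH3B and IDH3G. Their log2 fold changes were 0.02, 0.29 and 0.29 (adjusted p = 0.918, 0.118 and 0.0765). Without replicate 1 the adjusted p of IDH3G was 0.0355. In the annotation, 38.22% of the exon bases of IDH3A overlap ACSBG1 on the other strand, which had 10 to 33 counts per library and a log2 change of -0.16 (adjusted p = 0.665). Citrate synthase (CS), aconitase (ACO1), fumarase (FH) and the malate dehydrogenases MDH1 and MDH2 had log2 fold changes between -0.21 and 0.15 and did not pass the test.

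**Figure D5:**
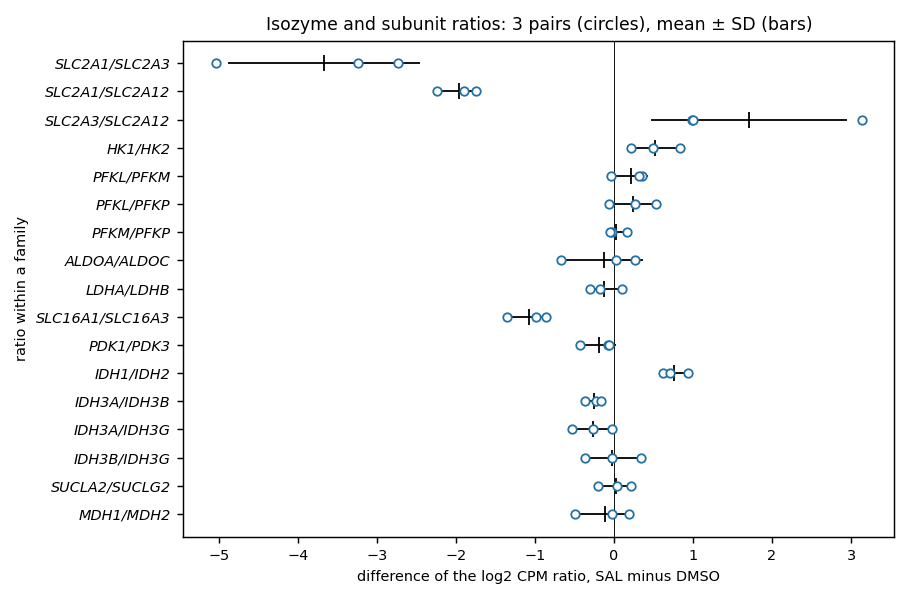
Difference of the log2 CPM ratio between members of a family (vertical axis), SAL minus DMSO (horizontal axis), for the 3 pairs (circles) with the mean and SD (bars). Ratios such as IDH1/IDH2 at 0.76 and SLC16A1/SLC16A3 at -1.07 have all pairs on one side of 0, while LDHA/LDHB and ALDOA/ALDOC have pairs on both sides.

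The ratios are given as values. An exact test over 3 pairs cannot go below p = 0.25, and no model was fitted to them. By level per kb of exon in DMSO, GAPDH stood first with 394 CPM per kb, and its lowest library (250) was above the highest of ENO1 (241), the second with 157. The following genes LDHB (110), TPI1 (104) and PGD (98.7) had ranges that overlapped each other. SLC2A3 was last in both groups, at 0.0706 CPM per kb in DMSO and 1.13 in SAL. SLC2A12 stood at rank 46 in DMSO and rank 34 in SAL, or at ranks 42 and 24 when exon bases that overlap other genes were left out of the length of every gene.

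Genes of the same pathways outside the list were described by wider lists. Of 20 other glycolysis genes tested, 3 were up-regulated (15.0%, against 11.5% of all genes) and 2 down-regulated (against 9.37%), with a median log2 fold change of 0.06. SLC16A7 (MCT2), a high-affinity monocarboxylate transporter, was measured at 55.9, 40.7 and 68.9 CPM in DMSO and at 25.6, 21.2 and 31.7 CPM in SAL, with no overlap (log2 fold change -1.07, adjusted p = 5.02e-06). PFKFB2, which makes the activator of phosphofructokinase, had 0.57 (adjusted p = 0.000657). PFKFB3, which makes the same activator and is named after its value was seen, was down-regulated (-0.45, adjusted p = 0.0260). LDHD, a D-lactate dehydrogenase, had 0.67 (adjusted p = 0.00465).

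Of 11 other genes of pyruvate entry, 3 were up-regulated (27.3%, against 11.5% of all genes) and 1 down-regulated (9.09%, against 9.37%), with a median of 0.02. MPC2, a subunit of the mitochondrial pyruvate carrier, was measured at 284, 81.6 and 82.2 CPM in DMSO and at 630, 214 and 217 CPM in SAL, higher in each pair (log2 fold change 1.31, adjusted p = 1.24e-07). Its partner MPC1 had 0.23 (adjusted p = 0.249) and is named here after its value was seen. PCK2, the mitochondrial phosphoenolpyruvate carboxykinase, had -0.64 (adjusted p = 0.000347), and PDHX, a structural component of pyruvate dehydrogenase, had 0.34 (adjusted p = 0.0184).

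Of 9 other pentose phosphate genes, 2 were up-regulated (22.2%, against 11.5% of all genes) and 0 down-regulated (against 9.37%), with a median of 0.20. PRPS1, which turns ribose-5-phosphate into the precursor of nucleotides, had 0.35 (adjusted p = 0.0111).

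Of 22 other genes at the TCA cycle, 4 were up-regulated (18.2%, against 11.5% of all genes) and 3 down-regulated (13.6%, against 9.37%), with a median of -0.05. The glutamate dehydrogenases GLUD1 and GLUD2 had log2 fold changes of 1.11 (adjusted p = 1.31e-06) and 1.30 (adjusted p = 3.86e-07). They are near-identical copies, so reads of one may have been counted for the other. ACLY, which makes cytosolic acetyl-CoA from citrate, was measured at 127, 705 and 470 CPM in DMSO and at 190, 1073 and 680 CPM in SAL (0.57, adjusted p = 0.000280). The succinate dehydrogenase subunits SDHA, SDHB, SDHC and SDHD, named after their values were seen, had -0.05, -0.06, 0.04 and -0.32 and did not pass the test.

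Several genes of the list are also known targets of the hypoxia response. They include the DEGs SLC2A3 and SLC16A3, which were higher in SAL, and PDK1, which was lower. SLC2A3 entered the test only through its SAL counts. SLC2A1, HK2, PGK1, ENO1, LDHA and ALDOA are known targets too. They did not pass the test, with log2 fold changes between -0.22 and 0.38. Of the other DEGs in glycolysis, SLC2A12, HK1 and ALDOC were higher in SAL, and TPI1 and SLC16A1 were lower. The targets named so far are examples and not a full count of such genes in the list. Beside them, 21 further genes of that response were described. Of these, 7 were up-regulated (33.3%, against 11.5% of all genes) and 3 down-regulated (14.3%, against 9.37%), with a median log2 fold change of 0.16. NDRG1, which is also known as an androgen-induced gene, had 97, 496 and 295 counts in DMSO and 1986, 12313 and 7959 counts in SAL (log2 change 4.45, adjusted p = 2.64e-12). ANKRD37 had 2.01 (adjusted p = 7.85e-06) and ERO1L had 0.63 (adjusted p = 0.000215). VEGFA and CA12, named after their values were seen, had -0.08 (adjusted p = 0.663) and -0.85 (adjusted p = 0.00172).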

How the data were processed

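Gene counts of 6 libraries of C4-2 cells were analysed, 3 DMSO and 3 SAL. The deposited values are raw counts per gene symbol. Per the paper's methods, the authors used only first reads, trimmed them, aligned them to hg19 with TopHat2 2.1.0 and Bowtie, and counted reads in exons of the gencode v19 annotation with HTSeq 0.11.2. A stranded kit was used, but reads were counted without strand, and reads shared by overlapping genes or similar copies may be lost or assigned to either. Reads outside genes came to 26.7% to 51.1% of the count tallies per library.

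As the paper did, 523 rRNA symbols were removed. The filter filterByExpr of edgeR 4.0.16 (R 4.3.3) left 16835 genes, which were normalized with TMM and tested by the quasi-likelihood test with robust estimation, the replicate number as a block and Benjamini-Hochberg adjustment over all genes tested. DEGs had an adjusted p under 0.05. The replicate numbers pair the libraries: deviations of same-numbered libraries from the group means correlated at 0.89, 0.86 and 0.74 over genes. The labels do not say whether a number is a shared culture or day. With the replicate block, p-values measure the spread of the differences between SAL and DMSO within these pairs of libraries. CPM are relative to TMM-scaled library sizes, and log2 CPM per pair and in ratios use a prior count of 2. SE was derived from the fold change and the F statistic. The script was tested on simulated data. Only 6 libraries were compared, which limits the precision.

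The genes and lists were chosen with earlier results of these data known. Named genes were the DEGs of the list, members of isozyme families, the 3 genes of highest mean CPM among the others and, of each wider list, the 3 DEGs with the smallest adjusted p. The remaining genes of the list are given so that each is accounted for, and others are said to be named after their values were seen. Positions, exon length and GC content come from GRCh37 (hg19) and the lifted GENCODE v44 annotation, a later release than the authors'. Of the 55765 symbols, 33529 matched a current and 1839 an older symbol, and 48 of 48 genes had a position. Promoter windows are from another build (GRCh38.p14) and were used for their letters only. Alternatives were DESeq2 1.42.0, its size factors, upper-quartile scaling, no block, other filters, rRNA genes kept, mitochondrial genes removed, an adjusted p under 0.01, other prior counts and leaving out each replicate number. A correction for GC content and exon length, the addition of pseudogene counts, lengths without overlapping exon bases, and the values without SLC2A3 or IDH1 were chosen after seeing the data. Some genes of the wider lists are not reported here by name.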

Additional observations from a re-analysis of the deposited data

How the results depend on the processing

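Of the 13 DEGs of the list, each kept its direction under every alternative run. Without the replicate block, 0 of 8 up-regulated and 0 of 5 down-regulated genes passed, with 0 in each of the 4 groups, while 2 genes of the list and 654 of all genes had an unadjusted p under 0.05. With DESeq2 and the block, 3 genes were down-regulated (1 in pyruvate entry and 0 in the TCA cycle), and ALDOC also lost its call. Among all genes tested, this setting called 7.66% up and 5.64% down. SLC2A3 was not tested where at least 10 counts in every library were required, which left 7 up-regulated genes. That filter called 12.3% of all genes tested up. At an adjusted p under 0.01 there were also 3 down-regulated genes, 1 in pyruvate entry and 0 in the TCA cycle, and ALDOC was lost. At that threshold, 7.33% of all genes tested were up-regulated and 5.20% down-regulated. With the correction for GC content and exon length, 9 genes were down-regulated (4 in glycolysis, 1 in the pentose phosphate pathway and 2 in the TCA cycle). The share of all genes down-regulated was then 13.2%. Without the filter on low counts, 1 gene of pyruvate entry was up-regulated, and the share of all genes up-regulated was 6.68%. Leaving out each replicate number gave 4 to 12 up-regulated and 1 to 6 down-regulated genes. By group these were 4 to 6 up and 1 to 4 down in glycolysis, 0 to 2 up and 0 to 1 down in pyruvate entry, 0 to 1 up in the pentose phosphate pathway, and 0 to 3 up and 0 to 2 down in the TCA cycle. The lowest counts came without replicate 3. Over the same settings, 4.41% to 14.6% of all genes tested were up-regulated and 2.84% to 11.7% down-regulated. These shares were also lowest without replicate 3. Removal of mitochondrial genes, rRNA genes kept and DESeq2 size factors changed no call in the list, and neither did the addition of pseudogene counts. The direction changed only for genes that did not pass the test. With upper-quartile scaling PFKL was at 0.00, PGAM1 at -0.03, PDHA1 at -0.03 and IDH3A at -0.02. With the GC content and length correction PFKL was at -0.12 and PGAM1 at -0.03. PGLS was at 0.08 without the block and at 0.00 without the filter. Over the fits that left out a replicate number, HK2 ranged from -0.01 to 0.21, PGAM1 from -0.02 to 0.03, PKM from -0.08 to 0.03, LDHB from -0.27 to 0.07, PDHA1 from -0.09 to 0.15, PGLS from -0.29 to 0.28, PGD from -0.07 to 0.01, RPIA from -0.42 to 0.07, IDH3A from -0.04 to 0.06 and MDH2 from -0.10 to 0.22. The cause of these changes was not tested. With 7864471 to 12532355 counts per library, depth limits SLC2A3 in DMSO, where 7, 0 and 5 counts were seen.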
